A study of Homo sapiens with 8 samples.

Results

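The 10 YAP/TAZ pathway genes described here were followed in a human liver cell line, in a derivative of it with introduced liver and cell-cycle factors, and in that derivative after bioprinting. They were taken from a list of symbols, drawn up with earlier results of these data known, and each matched 1 protein-coding row among the 58735 genes of the expression table. They are the co-activators YAP1 and WWTR1 (the gene of TAZ), the DNA-binding partner TEAD1, the regulators LATS2, AMOTL1 and AMOTL2, and the target genes CYR61 (now CCN1), CTGF (now CCN2), ANKRD1 and THBS1. HepaRG is a bipotent human hepatic progenitor line; its 3 libraries were of wild-type cells in flat flask culture and are called HepaRG plate. M14A is HepaRG whose genotype label gives FoxM1/HNF4A as transfected; 3 libraries came from the same kind of flask culture (M14A plate) and 2 from cells mixed into a bioink named GP, printed, and collected 4 h later (M14A printed). All 8 libraries thus share 1 parental line, and the promoter behind the introduced genes and whether M14A is a single clone are not given by the sources read here. Flask cells were detached and pelleted before RNA extraction, whereas printed constructs were frozen and ground, so printing and collection cannot be told apart. Nothing in the labels says that replicates were separate cultures, so every p-value measures sample-to-sample spread that may be only technical.

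YAP and TAZ are related co-activators that bind no DNA themselves. In the nucleus they bind TEAD proteins on gene promoters and enhancers and raise transcription of genes such as CTGF, CYR61 and ANKRD1. The Hippo kinases LATS1 and LATS2 phosphorylate YAP and TAZ, which keeps them in the cytoplasm, and the angiomotins AMOTL1 and AMOTL2 hold them at cell junctions and the actin cytoskeleton. LATS2 and AMOTL2 are at the same time targets of YAP and TAZ, which makes them part of a feedback loop. A spread cell on a stiff surface usually has nuclear YAP, a rounded cell in a soft gel usually does not, and in the liver the Hippo kinases limit organ size, while active YAP favours progenitor and biliary over hepatocyte fate. Control of YAP and TAZ is mostly by phosphorylation and location, which RNA levels do not measure.

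TEAD proteins recognise a short core element, GGAATG, read as CATTCC on the opposite strand. Start-site windows from RefSeq (GRCh38.p14) matched 8 of the 10 genes and gave 10 windows of 250 bases before a start, since WWTR1 and AMOTL2 have more than 1 start; CYR61 and TEAD1 were not among them. The core element, searched on both strands, was in the windows of 5 genes (YAP1, CTGF, ANKRD1, AMOTL2 and THBS1), against 11.9% of all 35116 windows of that length. Windows of 4 genes are shown, because genes that carry the same element in the window differed in how their RNA moved between the groups. Capitals mark the element, and each sequence runs 5′ to 3′ on the strand of its gene.
CTGF: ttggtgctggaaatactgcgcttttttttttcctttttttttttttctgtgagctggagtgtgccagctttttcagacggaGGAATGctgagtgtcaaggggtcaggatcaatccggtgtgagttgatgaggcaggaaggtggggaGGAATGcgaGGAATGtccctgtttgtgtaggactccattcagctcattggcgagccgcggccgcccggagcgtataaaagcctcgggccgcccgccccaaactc
ANKRD1: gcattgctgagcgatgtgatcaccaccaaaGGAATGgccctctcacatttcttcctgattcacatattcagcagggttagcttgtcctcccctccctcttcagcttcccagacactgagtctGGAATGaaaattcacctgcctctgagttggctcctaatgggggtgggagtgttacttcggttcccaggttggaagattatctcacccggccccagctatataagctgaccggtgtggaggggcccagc
AMOTL2: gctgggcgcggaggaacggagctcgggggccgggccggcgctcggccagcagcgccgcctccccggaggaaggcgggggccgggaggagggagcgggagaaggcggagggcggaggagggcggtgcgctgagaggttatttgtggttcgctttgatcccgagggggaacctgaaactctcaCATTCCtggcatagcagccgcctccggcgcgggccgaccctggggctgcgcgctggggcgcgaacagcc
THBS1: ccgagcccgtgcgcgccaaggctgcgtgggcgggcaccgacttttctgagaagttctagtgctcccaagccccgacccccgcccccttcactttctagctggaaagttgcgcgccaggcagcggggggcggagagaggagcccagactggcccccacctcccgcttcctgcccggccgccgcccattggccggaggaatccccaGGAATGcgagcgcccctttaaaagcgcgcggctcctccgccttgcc
The CTGF window (chr6:131951373-131951622, minus strand) held 3 elements, with first bases at -169, -104 and -95 from the start. In the ANKRD1 window (chr10:90921088-90921337, minus strand) there were 2, at -220 and -128. The AMOTL2 window (chr3:134374448-134374697, minus strand), which belongs to 1 of its 2 starts, held 1 element at -69, on the opposite strand. The THBS1 window (chr15:39580829-39581078, plus strand) held 1 at -46. The YAP1 window held 1 at -162, and neither WWTR1 window nor those of LATS2 and AMOTL1 held any. A loose form of the AP-1 element, TGANTCA with any base at N, does not overlap the TEAD core. It was found in the ANKRD1 window, as TGATTCA, and in no other of the 10, against 6.57% of all windows. None of the 10 held the narrower form TGA(C/G)TCA. The CArG box bound by SRF was in none of them, against 1.16%. A match of letters is a description and shows no binding.

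**Figure D1:**
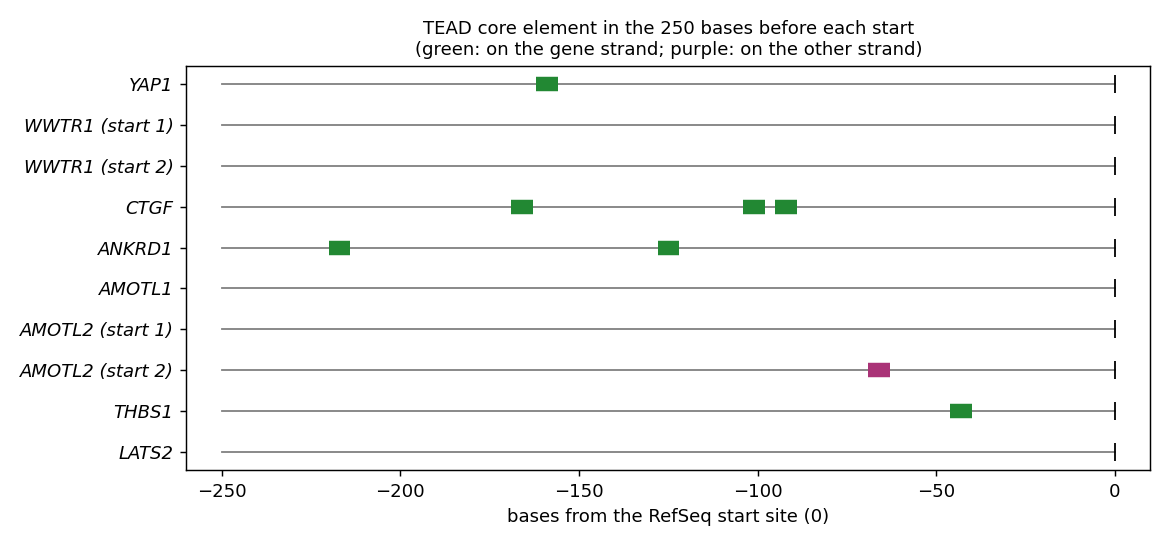
Positions of the TEAD core element in the 250 bases before each RefSeq start, with distance from the start site in bases on the horizontal axis and 1 line per start window. CTGF has 3 elements, ANKRD1 has 2, and YAP1, 1 of the AMOTL2 windows and THBS1 have 1 each; only the AMOTL2 element (purple) lies on the strand opposite its gene.

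On GRCh38, with the coordinates of GENCODE 29, the co-activators lie at chr11:102110461-102233423 on the plus strand (YAP1, ENSG00000137693) and chr3:149517235-149736714 on the minus strand (WWTR1, ENSG00000018408), and TEAD1 (ENSG00000187079) at chr11:12674591-12944483, plus strand. The regulators lie at chr13:20973032-21061547, minus strand (LATS2, ENSG00000150457), chr11:94706431-94876753, plus strand (AMOTL1, ENSG00000166025), and chr3:134355874-134375479, minus strand (AMOTL2, ENSG00000114019). The targets lie at chr1:85580761-85583962, plus strand (CYR61, ENSG00000142871), chr6:131948176-131951373, minus strand (CTGF, ENSG00000118523), chr10:90912096-90921276, minus strand (ANKRD1, ENSG00000148677), and chr15:39581079-39599466, plus strand (THBS1, ENSG00000137801). Values are for whole genes, summed over exons. Other genes, mostly antisense, overlap 3.13 to 9.97% of the exon bases of YAP1, WWTR1, CTGF, THBS1, AMOTL1 and AMOTL2, and as the strand setting is not known, reads there cannot be assigned with certainty.

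Levels are FPKM (fragments per kilobase of gene and library size, as scaled by the authors), which can be compared between genes. Reads recovered from the values numbered 15632154 to 19148262 per library. HNF4A stood at 5.67 to 6.50 FPKM in the parent, 37.9 to 43.1 in flask-grown M14A and 13.6 and 17.1 after printing, while FOXM1 stood at 12.9 to 14.9, 8.92 to 13.0 and 10.1 in both of the latter. Of the factors named in the genotype label, HNF4A was thus higher in M14A, and FOXM1 was not, in what the table counts. Of 6 hepatocyte markers, TTR and TF were below 1 FPKM in every library. The 6 summed to 21.8 to 24.1 FPKM in HepaRG, 357 to 516 in flask-grown M14A and 564 and 586 after printing. In M14A the sum rested mostly on SERPINA1 (means of 9.55, 334 and 459 FPKM in the 3 groups). Between printed and plate M14A cells ALB and APOA1 were called higher, and SERPINA1 and APOB were not called (limma adjusted p = 0.13 and 0.15). APOB had the lower mean in the printed cells (26.1 against 53.7 FPKM). Without M14A plate library 1 SERPINA1 was also called higher and APOB lower. Endothelial PECAM1, VWF and CDH5 and leukocyte PTPRC and CD68 were below 1 FPKM throughout, but the other 3 markers of these lists were called higher in M14A than in HepaRG, both grown in flasks. Mean FPKM in the 3 groups was 0.545, 1.42 and 1.10 for KDR, 1.71, 3.55 and 4.77 for CD14 and 0.768, 4.40 and 5.96 for LAPTM5. The 6 stellate cell and fibroblast markers summed to 19.4 to 21.1, 40.5 to 68.8 and 84.2 and 92.6 FPKM in the 3 groups, with COL1A2 below 1 everywhere. That sum rested on DCN, LUM and ACTA2, while PDGFRB (means of 1.80, 0.0698 and 0.0983 FPKM) and COL1A1 (1.91, 0.785 and 0.270 FPKM) were called lower in both M14A groups than in HepaRG plate. The 5 biliary and progenitor markers summed to 98.4 to 102, 26.0 to 61.1 and 46.4 and 50.0 FPKM, with EPCAM below 1 everywhere. SPP1 and KRT19 made up most of that sum, and KRT7 went the other way (means of 0.463, 2.03 and 5.74 FPKM) and was called higher in all 3 comparisons. KDR, LAPTM5 and KRT7 passed the test filter (at least 1 FPKM in at least 2 libraries) only through M14A libraries. PDGFRB passed only through HepaRG, and COL1A1 reached 1 FPKM outside HepaRG only in M14A plate library 1. For these genes a difference between HepaRG and M14A was thus built into their selection. The part of these markers in the results below was not tested, and in bulk RNA fewer cells of a type and less RNA per cell cannot be told apart. M14A plate library 1 stood apart from its group (Pearson r across genes of 0.957 and 0.948 with libraries 2 and 3, which correlated at 0.988), and results that rest on it are given with and without it. All 10 genes passed the filter of at least 1 FPKM in at least 2 libraries. AMOTL1 did so through the M14A libraries alone.

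In every group ANKRD1 was the highest of the 10 and CYR61 the next, and AMOTL1 was the lowest of all in each. ANKRD1 encodes a nuclear ankyrin repeat protein, and CYR61 and CTGF encode secreted matricellular proteins of the CCN family. In HepaRG plate the means were 158 ± 6.88 FPKM for ANKRD1, 91.8 ± 2.41 for CYR61, 44.6 ± 1.95 for THBS1, 26.3 ± 1.23 for AMOTL2 and 20.7 ± 1.15 for CTGF (SD, n = 3). YAP1 followed at 16.8 ± 1.27, TEAD1 at 14.05 ± 1.14, LATS2 at 6.01 ± 0.222, WWTR1 at 5.04 ± 0.0702 and AMOTL1 at 0.122 ± 0.0280 FPKM (SD, n = 3). The HepaRG libraries of YAP1 and TEAD1 were neighbours without overlap. AMOTL1 in HepaRG plate rested on 21 to 29 reads per library, whereas no other of the 10 genes had fewer than 253 reads in any library.

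**Figure D2:**
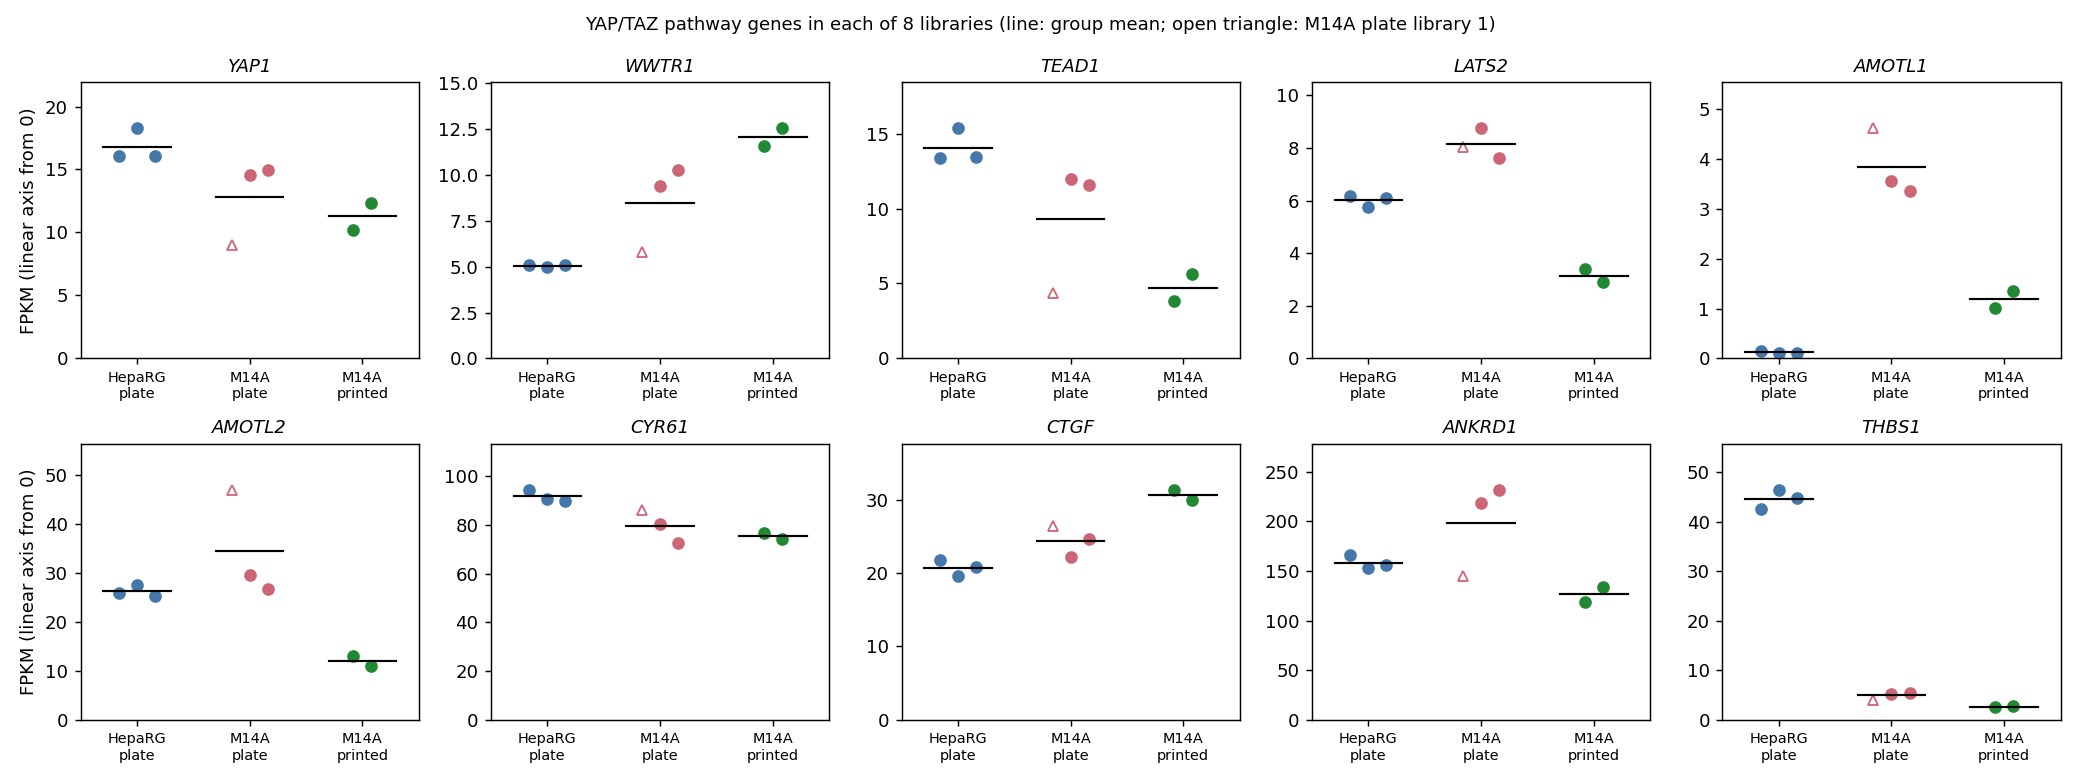
FPKM of the 10 genes (vertical axes, linear, each from 0) in the 3 HepaRG plate, 3 M14A plate and 2 M14A printed libraries; each point is a library, the line is the group mean, and the open triangle is M14A plate library 1. THBS1 drops between the flask-grown lines, AMOTL1 is near 0 only in HepaRG plate, and LATS2 and AMOTL2 are lowest in the printed libraries.

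Set against HepaRG plate, the M14A plate libraries show how the derivative differs from its parent in the same culture. THBS1, a secreted adhesive glycoprotein that activates TGF-beta, fell from 44.6 ± 1.95 to 4.91 ± 0.791 FPKM, and AMOTL1, barely detected in the parent, rose from 0.122 ± 0.0280 to 3.84 ± 0.677 FPKM (SD, n = 3 each). WWTR1 and LATS2 rose by smaller steps. The other 6 genes, among them CYR61, CTGF and ANKRD1, did not pass the test. In counts, 3 of the 10 were called higher and 1 lower at a Benjamini-Hochberg adjusted p below 0.05 by limma over all 14349 genes tested, where 16.1% of all genes were called higher and 14.7% lower. The median log2 fold change of the 10 was 0.26, and that of all genes -0.04.

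Among the co-activators, YAP1 stood at 16.1, 18.3 and 16.1 FPKM in HepaRG plate and 9.01, 14.6 and 15.0 in M14A plate. All M14A values lay below the HepaRG values, the lowest by far in library 1, and the log2 fold change of -0.39 (SE 0.19, 95% interval -0.83 to 0.05, limma adjusted p = 0.16) did not pass. WWTR1 stood at 5.09, 4.96 and 5.07 FPKM in HepaRG plate and 5.81, 9.40 and 10.3 in M14A plate. Every M14A value was higher, again with library 1 the lowest, and the log2 fold change was 0.62 (SE 0.18, limma adjusted p = 0.034). That call did not hold without HepaRG plate library 1, 2 or 3 (0.62, 0.61 and 0.62), M14A plate library 2 or 3 (0.53 and 0.48) or either printed library (0.62 each). In all it was lost under 12 of 23 alternative settings, among them equal FPKM totals (0.46, adjusted p = 0.19), length and GC trends removed (0.56, adjusted p = 0.068), no filter (adjusted p = 0.076) and a fit of only the groups compared (adjusted p = 0.052). The antisense gene WWTR1-AS1 overlaps 9.45% of the exon bases of WWTR1. TEAD1, the TEAD factor with the highest mean level in HepaRG plate, stood at 13.4, 15.4 and 13.4 FPKM there and at 4.38, 12.0 and 11.6 in M14A plate. M14A library 1 was far below the other 2, and without it the value was -0.23; the log2 fold change of -0.65 (SE 0.32, 95% interval -1.37 to 0.07, limma adjusted p = 0.15) did not pass.

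Among the regulators, AMOTL1, a junctional angiomotin that binds YAP, stood at 0.153, 0.113 and 0.0999 FPKM in HepaRG plate and 4.61, 3.55 and 3.36 in M14A plate. The groups were far apart, with a log2 fold change of 2.10 (SE 0.13, limma adjusted p = 9.0e-06). That value understates the change because HepaRG plate lay below the pseudocount of 1, and with a pseudocount of 0.1 it was 4.14. AMOTL1 passed the filter only through the M14A libraries, so a difference from HepaRG plate was built into its selection. Its paralog AMOTL2 stood at 26.0, 27.6 and 25.2 FPKM in HepaRG plate and 47.0, 29.7 and 26.8 in M14A plate. M14A library 1 was high and library 3 lay within the HepaRG range, and the log2 fold change of 0.34 (SE 0.20, 95% interval -0.12 to 0.80, limma adjusted p = 0.24) did not pass. LATS2, the kinase, stood at 6.17, 5.76 and 6.10 FPKM in HepaRG plate and 8.03, 8.75 and 7.62 in M14A plate. The groups did not overlap and the log2 fold change was 0.38 (SE 0.11, limma adjusted p = 0.030). LATS2 no longer passed when HepaRG plate library 1, 2 or 3 was left out (0.40, 0.35 and 0.39), without M14A plate library 2 (0.33), at equal FPKM totals (0.21, adjusted p = 0.20), with length and GC trends removed (0.31, adjusted p = 0.058) or with the replicate number as a block (0.38, adjusted p = 0.064).

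Among the targets, THBS1 stood at 42.6, 46.5 and 44.7 FPKM in HepaRG plate and 4.00, 5.27 and 5.46 in M14A plate, with no overlap and little spread in either group. Its log2 fold change was -2.96 (SE 0.13, limma adjusted p = 1.2e-06). CYR61 stood at 94.5, 90.7 and 90.1 FPKM in HepaRG plate and 86.3, 80.5 and 72.6 in M14A plate, all lower, and its log2 fold change of -0.20 (SE 0.12, 95% interval -0.47 to 0.06) did not pass (limma adjusted p = 0.22), although it did without M14A plate library 1 (-0.26). CYR61 also passed as lower after quantile normalization (-0.44, adjusted p = 0.0050), at equal FPKM totals (-0.40, adjusted p = 0.0061) and with length and GC trends removed (-0.42, adjusted p = 0.0090). CTGF stood at 21.8, 19.5 and 20.8 FPKM in HepaRG plate and 26.4, 22.2 and 24.7 in M14A plate, all higher, with a log2 fold change of 0.22 (SE 0.12, 95% interval -0.05 to 0.50, limma adjusted p = 0.19). With each library's trend with gene length and GC content removed the CTGF value was -0.01. ANKRD1 stood at 166, 153 and 156 FPKM in HepaRG plate and 145, 219 and 232 in M14A plate. Library 1 lay below every HepaRG value and libraries 2 and 3 above, and the log2 fold change was 0.29 (SE 0.18, 95% interval -0.12 to 0.71, limma adjusted p = 0.25); without library 1 it was 0.51 and passed (adjusted p = 0.0022). Groups did not overlap for 8 of the 10 genes, against 53.0% of all genes. Without M14A plate library 1, 4 of the 10 were called higher (AMOTL1, ANKRD1, LATS2 and WWTR1) and 2 lower (CYR61 and THBS1), where 20.3% and 22.7% of 14219 genes were called.

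The comparison of M14A printed with M14A plate asks how the printed cells differed after 4 h, with the way of collection differing as well. The 3 regulators fell together: AMOTL2 from 34.5 ± 11.0 to 12.0 ± 1.46 FPKM, LATS2 from 8.14 ± 0.569 to 3.15 ± 0.340 and AMOTL1 from 3.84 ± 0.677 to 1.19 ± 0.239 (SD, n = 3 and n = 2). The targets did not move as 1 block. THBS1 and ANKRD1 fell, while CYR61 and CTGF did not pass the test, nor did YAP1, WWTR1 and TEAD1. In counts, 0 of the 10 were called higher and 5 lower by limma (adjusted p below 0.05), where 17.7% of all genes tested were called higher and 15.5% lower; at an unadjusted p below 0.05, CTGF and WWTR1 were higher. The median log2 fold change of the 10 was -0.66, and that of all genes 0.01.

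**Figure D3:**
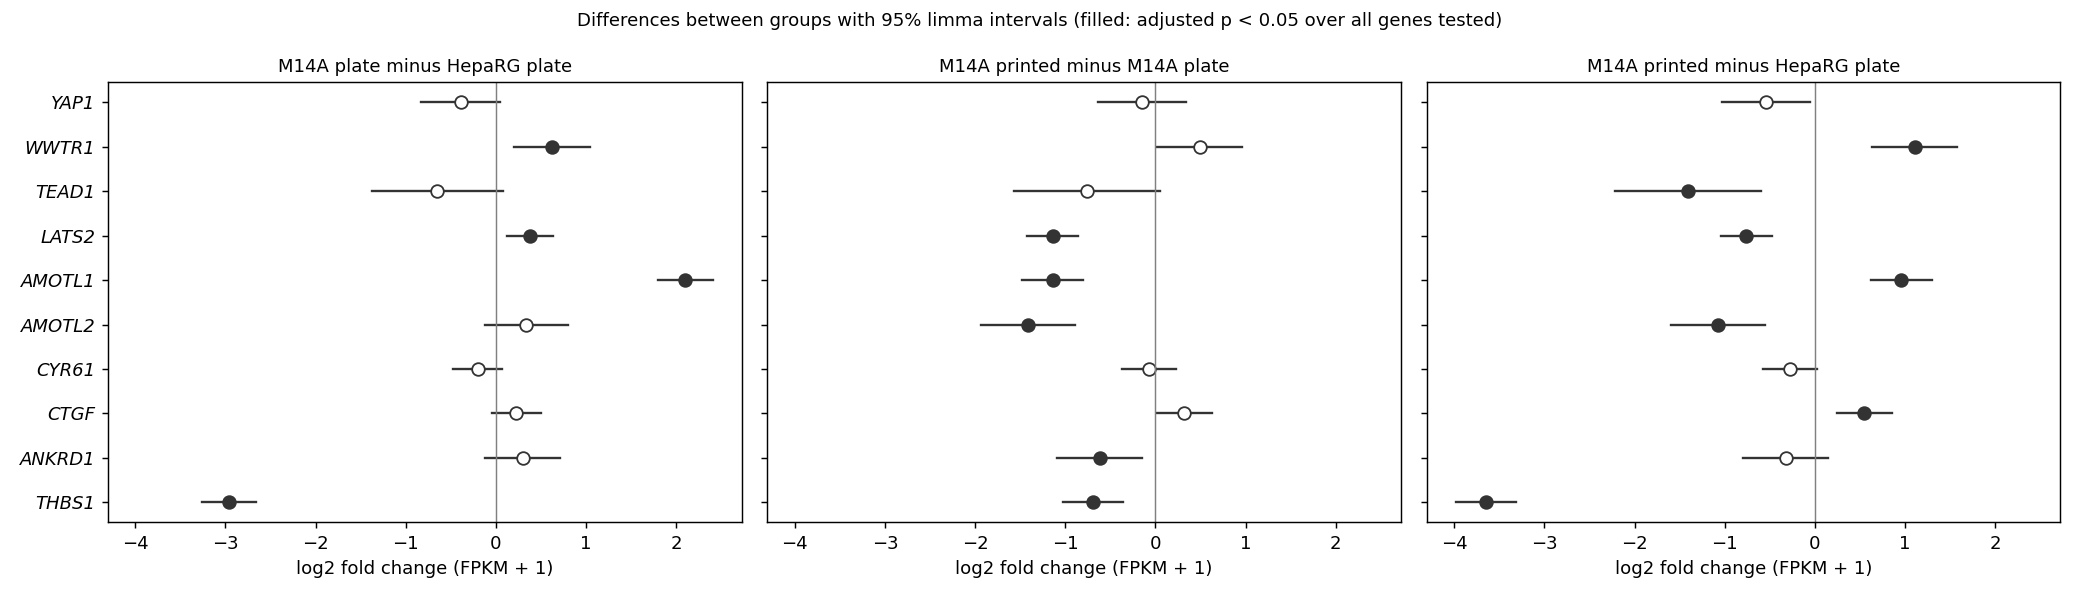
Log2 fold change on the log2(FPKM + 1) scale (horizontal axis) with its 95% limma interval for the 10 genes in the 3 comparisons; filled points have an adjusted p below 0.05 over all genes tested. THBS1 at -2.96 and AMOTL1 at 2.10 stand out between the flask-grown lines, and AMOTL2, LATS2 and AMOTL1 lie between -1.41 and -1.14 between printed and plate M14A cells. AMOTL1 passed the filter only through M14A libraries.

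AMOTL2 stood at 13.0 and 10.9 FPKM in the printed libraries, below each of the 6 flask libraries, with a log2 fold change against M14A plate of -1.41 (SE 0.23, limma adjusted p = 0.0027). LATS2 stood at 3.39 and 2.91 FPKM, also below each flask library of either line (log2 fold change -1.14, SE 0.12, limma adjusted p = 7.5e-04). AMOTL1 stood at 1.02 and 1.36 FPKM, lower than in each M14A plate library but well above HepaRG plate (log2 fold change -1.14, SE 0.15, limma adjusted p = 0.0013). These 3 calls held under all 23 alternative settings for AMOTL2 and LATS2, and under all 22 that could be run for AMOTL1, which the filter at 5 FPKM removed.

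YAP1 stood at 10.2 and 12.3 FPKM in the printed libraries, within the M14A plate range, and its log2 fold change of -0.15 (SE 0.21, 95% interval -0.64 to 0.34) did not pass (limma adjusted p = 0.63). WWTR1 stood at 11.6 and 12.5 FPKM, above each M14A plate library. Its log2 fold change was 0.49 (SE 0.21, 95% interval 0.02 to 0.96, limma adjusted p = 0.10), and -0.20 with the sign turned at equal FPKM totals, a scaling under which the median of all genes was -0.51. It passed without M14A plate library 1 (0.27) or 3 (0.63). TEAD1 stood at 3.82 and 5.62 FPKM, a range that includes M14A plate library 1 and lies below libraries 2 and 3 (log2 fold change -0.76, SE 0.36, 95% interval -1.57 to 0.05, limma adjusted p = 0.13). Without M14A plate library 1 both TEAD1 (-1.18) and YAP1 (-0.37) passed as lower.

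THBS1 stood at 2.57 and 2.69 FPKM in the printed libraries, below each M14A plate value (log2 fold change -0.69, SE 0.15, limma adjusted p = 0.0084); the call was lost without M14A printed library 1 (-0.67, adjusted p = 0.055) and in a fit of only the groups compared (adjusted p = 0.064). ANKRD1 stood at 119 and 134 FPKM, below every flask library of either line. Its log2 fold change of -0.62 (SE 0.21, limma adjusted p = 0.048) was called by a narrow margin, and the call was lost under 14 of 23 alternative settings, with values from -0.49 to -0.71. Those included leaving out HepaRG plate library 1, 2 or 3 (-0.62 each), M14A plate library 2 or 3 (-0.53 and -0.49) or M14A printed library 1 or 2 (-0.53 and -0.71), and the replicate block (-0.56, adjusted p = 0.082). With length and GC trends removed ANKRD1 stood further down, at -1.03 (adjusted p = 2.5e-04).

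CYR61 stood at 76.8 and 74.4 FPKM in the printed libraries, inside the M14A plate range, with a log2 fold change of -0.07 (SE 0.13, 95% interval -0.37 to 0.23, limma adjusted p = 0.70). CTGF stood at 31.3 and 30.0 FPKM, above every flask library, with a log2 fold change of 0.32 (SE 0.13, 95% interval 0.02 to 0.63, limma adjusted p = 0.098). It passed as higher without M14A plate library 1 (0.38, adjusted p = 0.010), and at equal FPKM totals it turned to -0.41 (adjusted p = 0.012), against -0.51 for the median gene. Groups did not overlap for 7 of the 10 genes, against 51.3% of all genes. Without M14A plate library 1, 2 of the 10 were called higher (CTGF and WWTR1) and 7 lower (all the others but CYR61), where 28.4% and 27.1% of genes were called. Immediate early genes, which many kinds of handling induce and to which CYR61 is often counted, are given beside these values. The 13 listed summed to 273 to 285 FPKM in HepaRG, 353 to 609 in flask-grown M14A and 401 and 492 after printing. The printed libraries lay below M14A plate library 1 (609) and above libraries 2 and 3 (379 and 353). Of 11 tested 4 rose, FOS and FOSB by the most, and 2 (JUNB and DUSP1) fell, where 17.7% of all genes rose and 15.5% fell. Of the 4, FOSB and NR4A1 reached 1 FPKM only in the printed libraries, so a difference was built into their selection. Mitochondrially encoded genes took 8.21 to 9.72% of reads in flask-grown M14A and 13.3 and 16.4% after printing. The part of either in these results was not tested.

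With the printed cells set against HepaRG plate, the 3 groups can be ordered for each gene. This comparison joins the introduced genes, printing and collection, and it shares its libraries with those above. WWTR1, CTGF and AMOTL1 were higher and AMOTL2, THBS1, LATS2 and TEAD1 lower in the printed cells, so 3 of the 10 were called higher and 4 lower by limma, where 28.1% of all genes were called in each direction (4037 higher and 4028 lower). The groups did not overlap for any of the 10, against 80.4% of all genes. The median log2 fold change of the 10 was -0.43, and that of all genes -0.05.

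From lowest to highest, WWTR1 ran from HepaRG plate to M14A plate to M14A printed, with a log2 fold change of 1.11 (SE 0.21, limma adjusted p = 0.0021) between the ends, and the printed and plate M14A groups were not told apart by the test. At equal FPKM totals the WWTR1 difference between the ends was 0.25 and no longer called (adjusted p = 0.44), against a median gene of -0.76. CTGF had the same order, at 20.7 ± 1.15, 24.4 ± 2.10 and 30.7 ± 0.960 FPKM (SD, n = 3, 3 and 2), and only its ends differed (0.55, SE 0.13, limma adjusted p = 0.0082). The call of CTGF was lost without M14A printed library 1 (0.51) and with length and GC trends removed (0.05), and at equal FPKM totals CTGF turned to -0.38 against a median of -0.76. YAP1 and TEAD1 ran the other way. For YAP1 (16.8 ± 1.27, 12.9 ± 3.34 and 11.3 ± 1.49 FPKM) even the ends did not differ at the threshold (-0.54, SE 0.21, 95% interval -1.03 to -0.05, limma adjusted p = 0.060), whereas without M14A plate library 1 they did (-0.54, adjusted p = 0.0021). For TEAD1 (14.05 ± 1.14, 9.31 ± 4.27 and 4.72 ± 1.28 FPKM) they did (-1.41, SE 0.36, limma adjusted p = 0.0093), but not without M14A printed library 1 (-1.18).

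THBS1 had HepaRG plate, M14A plate and M14A printed in falling order with every step called, and a log2 fold change of -3.65 (SE 0.15, limma adjusted p = 8.1e-07) between the ends. AMOTL1 was lowest in HepaRG plate, intermediate in the printed cells (0.96 above HepaRG plate, SE 0.15, limma adjusted p = 8.4e-04, and 2.53 with a pseudocount of 0.1) and highest in M14A plate. It passed the filter only through M14A libraries, so a difference from HepaRG plate was built into its selection. AMOTL2 was lowest in the printed cells, at -1.08 from HepaRG plate (SE 0.23, limma adjusted p = 0.0040), and HepaRG and M14A plate were not told apart. LATS2 was lowest in the printed cells (-0.76 from HepaRG plate, SE 0.12, limma adjusted p = 0.0011) and highest in M14A plate. CYR61 (-0.28, SE 0.13, 95% interval -0.58 to 0.02, limma adjusted p = 0.10) and ANKRD1 (-0.32, SE 0.21, 95% interval -0.79 to 0.14, limma adjusted p = 0.21) did not pass between printed cells and HepaRG plate, but without M14A plate library 1 both did, at the same fold changes (adjusted p = 0.010 and 0.0084).

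Related genes were also set against each other within each library. These ratios were chosen after the values had been seen, and an exact two-sided permutation test cannot go below p = 0.10 with 3 libraries against 3 or 0.20 with 3 against 2, so they are given as a description. The ratio of WWTR1 to YAP1 in FPKM was 0.317, 0.272 and 0.316 in HepaRG plate, 0.645, 0.645 and 0.685 in M14A plate, and 1.13 and 1.02 after printing. No groups overlapped, and M14A plate library 1, low for both genes, did not stand apart in their ratio. The sum of the pair was 21.2 to 23.2 FPKM in HepaRG, 14.8 to 25.2 in flask-grown M14A and 21.8 and 24.9 after printing, with overlap throughout. The ratio of CYR61 to CTGF was 4.33, 4.65 and 4.33, then 3.27, 3.63 and 2.94, then 2.45 and 2.48 in the same order of groups, again without overlap. AMOTL1 made up 0.392 to 0.586% of the summed FPKM of AMOT, AMOTL1 and AMOTL2 in HepaRG, 8.82 to 10.7% in flask-grown M14A and 6.84 and 10.3% after printing. The share of TEAD1 in the summed FPKM of TEAD1 to TEAD4 was 45.8 to 52.1% in HepaRG, 21.4, 49.3 and 49.3% in flask-grown M14A and 22.1 and 38.0% after printing, so M14A plate library 1 lay with printed library 1 and away from its own group.

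**Figure D4:**
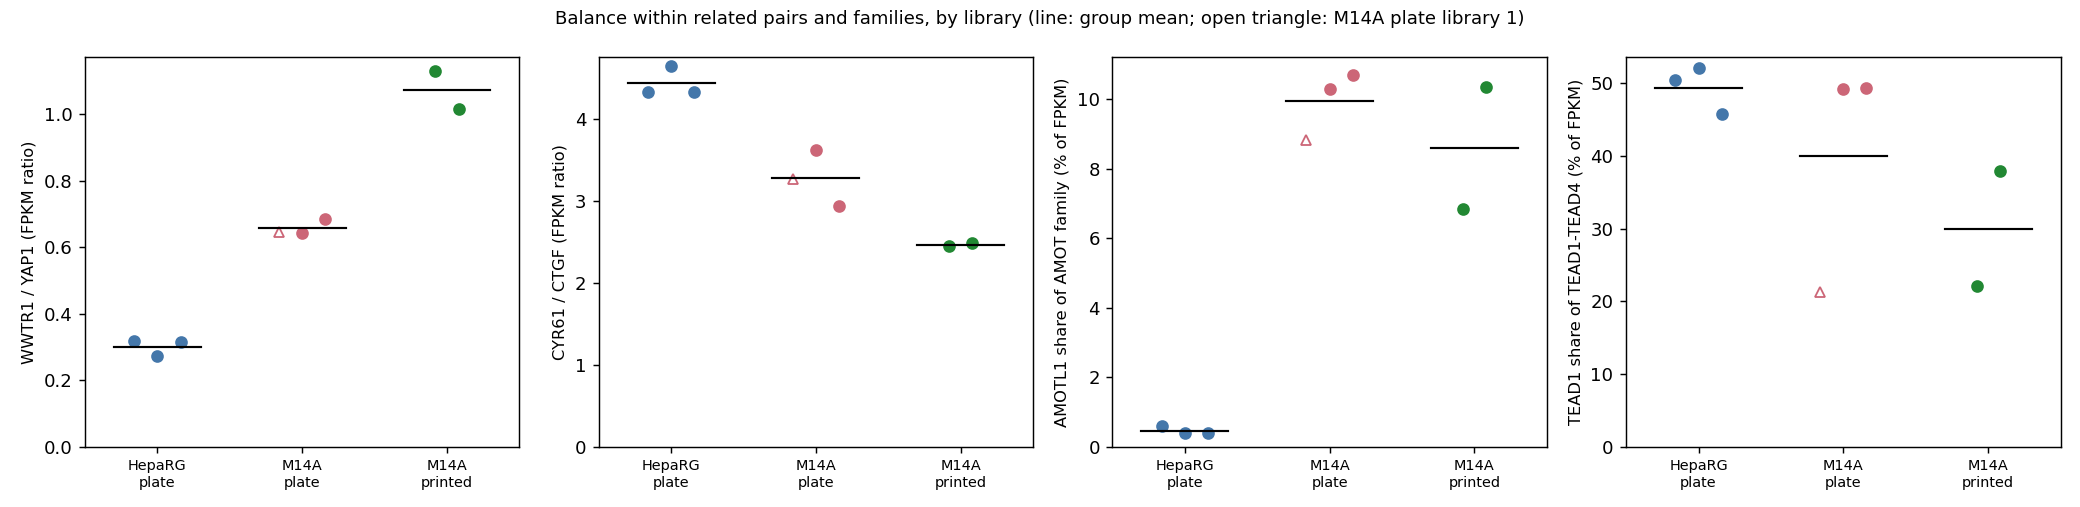
Ratios of FPKM (WWTR1 to YAP1, CYR61 to CTGF) and shares of summed FPKM in percent (AMOTL1 in the angiomotin family, TEAD1 among TEAD1 to TEAD4) on vertical axes from 0; each point is a library, the line is the group mean, and the open triangle is M14A plate library 1. The WWTR1 to YAP1 ratio lies between 0.272 and 0.317, between 0.645 and 0.685, and at 1.02 and 1.13 in the 3 groups, while the TEAD1 share splits M14A plate library 1 from libraries 2 and 3.

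Other genes of the pathway were read from 4 lists of 63 genes. Of 26 Hippo kinases and adaptors, 25 were tested, and between the flask-grown lines 4 rose and 3 fell (median log2 fold change -0.23), shares close to the 16.1% and 14.7% of all genes. Of those that rose, AMOT reached 1 FPKM only in M14A plate libraries 2 and 3 (1.27 and 1.28). A difference from HepaRG plate was thus built into its selection. The count of falls was 7 without M14A plate library 1 (where 22.7% of all genes fell) and 5 without library 3. It was 1 without HepaRG plate library 1 and 0 without HepaRG plate library 2 or 3. Over all genes, 1219 of 14159, 1234 of 14143 and 1233 of 14158 fell without HepaRG plate library 1, 2 and 3. Without M14A plate library 3, 2174 of 14208 fell. Rises among the 25 numbered 2 without M14A plate library 2 or 3. There, 1973 of 14199 and 2318 of 14208 of all genes rose. WWC1, a scaffold that activates LATS kinases, rose from 5.36 ± 0.159 to 20.7 ± 7.25 FPKM (a log2 difference of 1.72, SE 0.21, limma adjusted p = 3.5e-04). MAP4K4, a kinase upstream of LATS, rose from 10.4 ± 0.769 to 20.9 ± 1.12 FPKM (0.95, SE 0.15, limma adjusted p = 0.0016). In printed against plate M14A cells 0 of the 25 rose and 9 fell (median -0.47), where 17.7% of all genes rose and 15.5% fell. Without M14A plate library 1, 18 fell, where 27.1% of all genes fell. With either printed library left out 5 fell, and 1 rose without M14A plate library 3. Over all genes, 1368 of 14109 and 1217 of 14111 fell without printed library 1 and 2. Without M14A plate library 3, 2222 of 14208 rose. LIMD1, a LIM protein that binds LATS, fell from 4.83 ± 1.48 to 0.860 ± 0.184 FPKM (a log2 difference of -1.62, SE 0.20, limma adjusted p = 0.0011), and the polarity scaffold DLG5, which other genes overlap over 18.0% of its exon bases, from 10.4 ± 1.86 to 3.41 ± 0.150 FPKM (-1.36, SE 0.17, limma adjusted p = 0.0011). LATS1, the paralog of LATS2, was at 3.97 to 4.45 FPKM in HepaRG, 0.905 to 2.99 in flask-grown M14A and 1.45 and 1.76 after printing. It passed neither test, but was called in both without M14A plate library 1, and it was lower in printed cells than in HepaRG plate (-0.98, SE 0.29, limma adjusted p = 0.018).

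Of 7 other TEAD and VGLL genes, 4 were tested, and 1 rose and 1 fell between the flask-grown lines (median -0.045). Among the 4, 0 rose and 1 fell in the printed cells (median -0.26), and 2 fell without M14A plate library 1. Of all genes, 16.1% rose and 14.7% fell in the first comparison, and 17.7% and 15.5% in the second (28.4% and 27.1% without that library). TEAD2 fell from 2.39 ± 0.316 to 1.04 ± 0.0683 FPKM (a log2 difference of -0.73, SE 0.12, limma adjusted p = 0.0022). VGLL4, which competes with YAP for TEAD, rose from 4.66 ± 0.142 to 8.21 ± 2.02 FPKM (0.68, SE 0.16, limma adjusted p = 0.012; 23.7% of its exon bases lie in other genes; 0.66 and not called without HepaRG plate library 3) and stood at 4.66 ± 0.360 FPKM in the printed cells (-0.68 against M14A plate, SE 0.18, limma adjusted p = 0.019), a fall not called without M14A printed library 1 or 2 (-0.62 and -0.75). Nor was the VGLL4 fall called with no filter (adjusted p = 0.053), in a fit of only the groups compared (adjusted p = 0.098), or with length and GC trends removed and M14A plate library 1 left out (-0.35, adjusted p = 0.052).

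Of 17 further target genes of YAP and TAZ, 15 were tested, and members of the list moved in both directions. Between the flask-grown lines 3 rose and 6 fell (median -0.25), where 16.1% of all genes rose and 14.7% fell. Without HepaRG plate library 1, 2 or 3 only 1 rose, and 3 and 2 fell without library 1 and 3. Of all genes, 1569 of 14159, 1617 of 14143 and 1632 of 14158 rose without HepaRG plate library 1, 2 and 3. Falls over all genes numbered 1219 and 1233 without library 1 and 3. The largest rise was that of IGFBP3, an IGF-binding protein: from 3.51 ± 0.347 to 20.2 ± 6.42 FPKM (log2 fold change 2.19, SE 0.20, limma adjusted p = 6.5e-05). FJX1, a secreted Golgi protein, fell from 8.17 ± 0.441 to 3.18 ± 1.37 FPKM (-1.18, SE 0.23, limma adjusted p = 0.0056). In the printed cells 2 rose and 6 fell (median -0.49), where 17.7% of all genes rose and 15.5% fell. However, 1 fell without M14A printed library 1, 2 without HepaRG plate library 1, 2 or 3 or M14A plate library 2, and 3 without M14A plate library 3. Over all genes, 1368 of 14109 fell without M14A printed library 1, and 1755 to 1778 with a HepaRG plate library left out. Falls over all genes numbered 1667 of 14199 without M14A plate library 2 and 2066 of 14208 without library 3. Only 1 of the 15 rose with either printed library left out, where 1127 of 14109 and 1534 of 14111 of all genes rose. NUAK2, a stress kinase, fell from 5.61 ± 2.86 to 1.82 ± 0.0183 FPKM (-1.15, SE 0.28, limma adjusted p = 0.015), a call lost without M14A printed library 1 or 2 (-1.14 and -1.15), with no filter (adjusted p = 0.058) and in a fit of only the groups compared (adjusted p = 0.076). PTPN14, a phosphatase that binds YAP, fell from 3.74 ± 0.225 to 1.47 ± 0.245 FPKM (-0.95, SE 0.14, limma adjusted p = 0.0017).

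Of 13 immediate early genes, 11 were tested; 4 rose and 0 fell between the flask-grown lines (median 0.59) and 4 rose and 2 fell in the printed cells (median 0.25), where 16.1% of all genes rose and 14.7% fell in the first comparison and 17.7% and 15.5% in the second. Without M14A plate library 1, 6 rose and 0 fell, then 6 rose and 3 fell, against 20.3% and 22.7%, then 28.4% and 27.1% of all genes. In the printed cells 2 rose with either printed library left out, and 1 and 0 fell without library 1 and 2. Of all genes, 1127 of 14109 rose and 1368 fell without printed library 1. Without printed library 2, 1534 of 14111 rose and 1217 fell. EGR1 rose from 3.67 ± 0.268 to 20.8 ± 9.41 FPKM and IER3 from 25.6 ± 0.819 to 65.6 ± 28.4 FPKM in M14A plate (2.14, SE 0.25, and 1.24, SE 0.26, limma adjusted p = 3.3e-04 and 0.0067). FOS rose from 4.33 ± 2.14 to 76.1 ± 10.7 FPKM and FOSB from 0.141 ± 0.0675 to 8.34 ± 1.81 FPKM in the printed cells (log2 fold changes 3.92, SE 0.28, and 3.02, SE 0.15, limma adjusted p = 3.6e-04 and 2.1e-04). FOSB lay below the pseudocount of 1 in all 6 flask libraries and passed the filter only through the 2 printed ones, so a difference was built into its selection, and 3.02 understates the change.

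**Figure D5:**
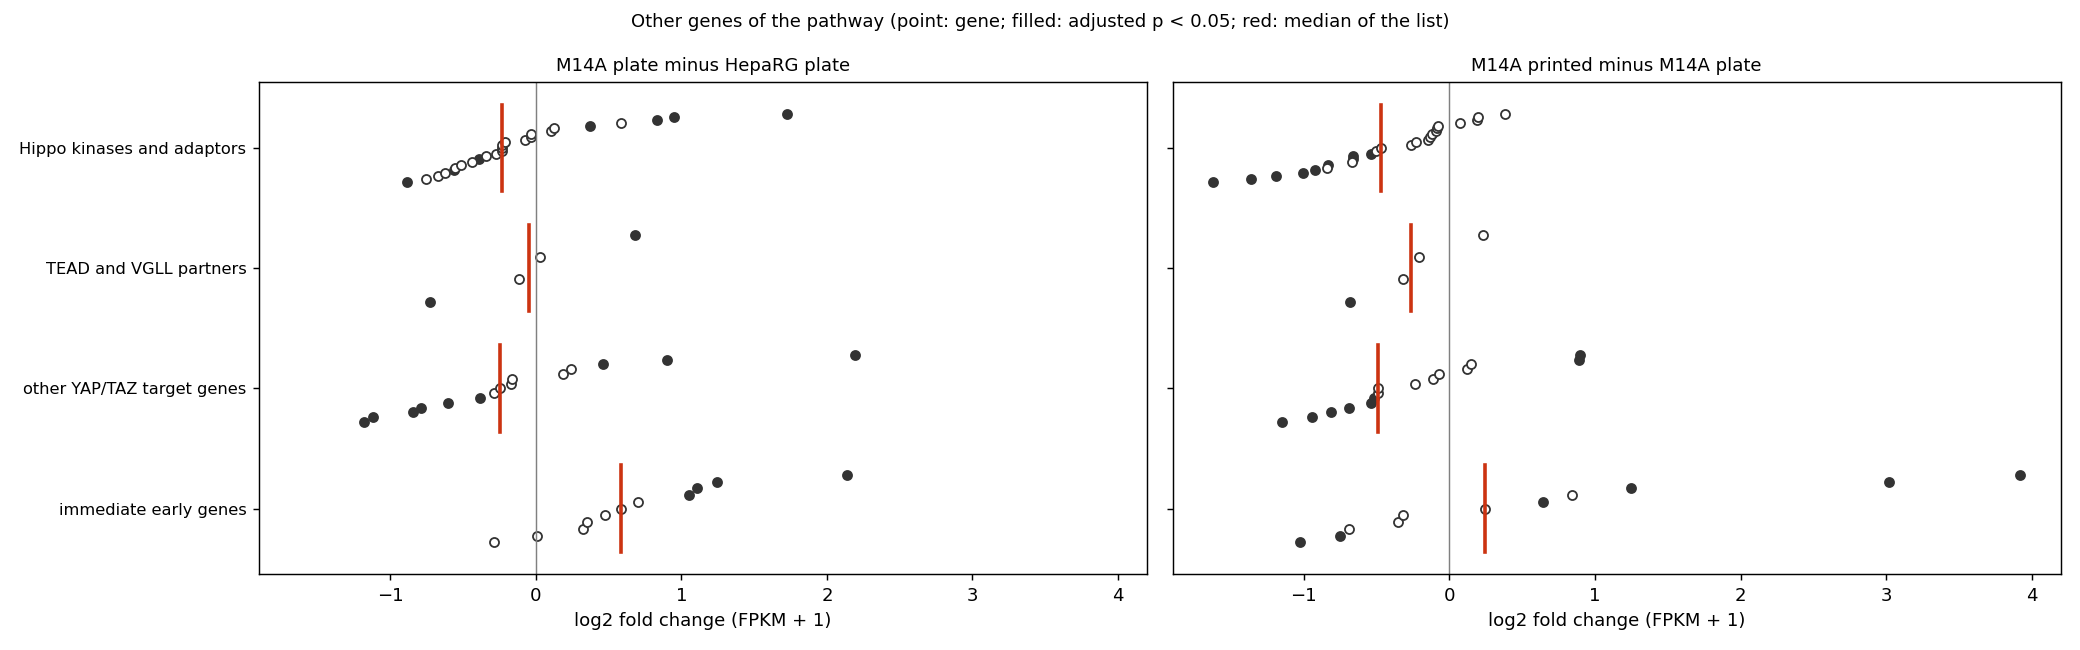
Log2 fold change on the log2(FPKM + 1) scale (horizontal axis) of each tested gene of 4 other lists in 2 comparisons; filled points have an adjusted p below 0.05 and the red bar is the median of the list. Hippo kinases and adaptors have a median of -0.23 in the first comparison and -0.47 in the second, and FOS and FOSB lie at 3.92 and 3.02 in the second.

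For the 6 of the 10 genes whose group means spanned at least 1 on the log2(FPKM + 1) scale, the protein-coding genes with the most similar profile were sought by the root-mean-square difference over the 8 libraries after centring. WWTR1 was nearest to HSD17B12 (0.055) and TC2N (0.067). TEAD1 was nearest to SMG1 (0.063) and MED1 (0.066). Both had their highest group mean in HepaRG plate and their lowest in the printed cells, an order that their choice by likeness to TEAD1 favours. AMOTL2 was nearest to IL17RA (0.058) and OPA3 (0.081), and LATS2 to ZNF587B (0.092) and SMAD7 (0.10). AMOTL1 was nearest to PLXNA2 (0.13) and TRIM63 (0.14), and THBS1 to IGFN1 (0.15) and AMIGO2 (0.17).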

How the data were processed

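Per the labels' protocols, 1 µg of RNA collected in TRIzol entered each library, made with the NEBNext Ultra RNA kit. The submitters' processing notes name HISAT2 2.0.5 and featureCounts 1.5.0-p3; strand setting, build and options were not given in what was read here. Values are FPKM as deposited by the authors; coordinates of all 58735 genes equal those of GENCODE 29 on GRCh38. FPKM times gene length gave whole multiples of the smallest product (tolerance 0.01) for 99.92 to 99.98% of values, taken as reads. FPKM totals ran from 254141 to 514152, so a change is relative to the bulk of genes. 0 columns were left without a sample.

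Genes reaching 1 FPKM in 2 or more libraries (14349) entered limma 3.58.1 (R 4.3.3) as log2(FPKM + 1) values (all 8 libraries, 3 group means, eBayes with trend, 5 residual degrees of freedom, two-sided, Benjamini-Hochberg over all genes). The procedure was tested on simulated data. The comparisons share libraries. The 10 genes and the lists were chosen with earlier results of these data known. 1 further gene list is not reported here. Named from each list were up to 2 called genes per comparison with the largest change; the 2 nearest profiles were named for genes spanning at least 1 log2. LATS1 and the ratios were chosen after their values were seen. Alternatives were pseudocounts of 0.1 and 0.01, no filter, a filter at 5 FPKM, 3 scalings, fits of only the groups compared, no trend, voom weights, a replicate block, a threshold of 0.01 and each library left out; 3 were added after the data were seen (removing length and GC trends by splines of 5 degrees of freedom, doing so with M14A plate library 1 left out, and testing 11306 protein-coding genes alone).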

Additional observations from a re-analysis of the deposited data

How the results depend on the processing

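Of the 10 genes, 4 were called between M14A plate and HepaRG plate, 2 at a threshold of 0.01 and 2 to 6 with 1 library left out. Between printed and plate M14A cells 5 were called, 9 at equal FPKM totals, 3 in a fit of only the groups compared, 9 with length and GC trends removed and M14A plate library 1 left out, and 3 to 9 with 1 library left out. Between printed cells and HepaRG plate 7 were called, and 5 to 10 over all settings. Values that changed sign were CTGF between the flask-grown lines with length and GC trends removed (-0.011), and, at equal FPKM totals, WWTR1 (-0.20) and CTGF (-0.41) between printed and plate M14A cells and CTGF (-0.38) between printed cells and HepaRG plate; the cause was not tested. Equal totals shifted the median gene from -0.04 to -0.20, from 0.01 to -0.51 and from -0.05 to -0.76 in the 3 comparisons, and the percentage of called genes that were higher from 52.3 to 37.9%, from 53.3 to 6.95% and from 50.1 to 14.2%. Over all genes, the 2112 lower calls between the flask-grown lines became 948 at 5 FPKM, 1084 at 0.01, 3376 at equal totals, 3397 with trends removed, 4090 with trends removed and M14A plate library 1 left out, and 1219 to 3224 with 1 library left out, and the 2317 higher calls became 1393 at 5 FPKM and 1460 at 0.01. Between printed and plate M14A cells the 2544 higher calls became 494 at equal totals, 1062 in the fit of only the groups compared, 1265 at 0.01, 4323 with trends removed and M14A plate library 1 left out, and 1127 to 4040 with 1 library left out. The 2226 lower calls became 1260 at 5 FPKM, 6613 at equal totals, 954 in that fit, 1103 at 0.01, 3973 with trends removed and M14A plate library 1 left out, and 1217 to 3849 with 1 library left out. Between printed cells and HepaRG plate the higher calls became 1485 and the lower 8966 at equal totals, with lower calls of 1807 at 5 FPKM and 2677 at 0.01. Whether equal replicate numbers mark paired libraries is not known from the labels. Deviations of same-numbered HepaRG and M14A plate libraries correlated at -0.07, 0.08 and -0.16, and those of the 2 M14A plate and printed pairs at 0.49 and 0.36. With 2 printed libraries their deviations mirror each other, and M14A plate library 3 correlated with printed library 2 at 0.43. With the replicate number as a block 3, 4 and 7 of the 10 genes were called in the 3 comparisons. The small number of printed libraries (2), and the 21 to 29 reads of AMOTL1 per HepaRG plate library, limit precision most.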
